A study of Drosophila melanogaster with 12 samples.

Results

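The genes of the cytosolic ribosome were followed through 6 peak lists of RNA polymerase II (Pol II) from Drosophila melanogaster cells. Members were the protein-coding genes of the Ensembl annotation of the BDGP6 (dm6) assembly whose symbol begins with RpL, RpS or RpLP followed by a digit. This choice used no measured value, and it gave 92 of the 18277 annotated genes and of the 13968 protein-coding ones. Of these, 54 encode proteins of the large ribosomal subunit or their relatives and 38 those of the small subunit. They were spread over the genome, with 14 on X, 19 on 2L, 21 on 2R, 14 on 3L, 23 on 3R and 1 on chromosome 4. Their genes were short, with a median body of 1315 bp between the annotated ends (304 to 4677 bp), against 2178 bp for the other protein-coding genes. The 73 genes of the mitochondrial ribosome, which are named mRpL or mRpS and were not members, had a median of 909 bp and were used as a second group for comparison.

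Cytosolic ribosomal proteins assemble with ribosomal RNA in the nucleolus into the large and the small subunit, and growing cells need them in matched amounts. Their genes are among the most heavily transcribed of Pol II, and in flies the loss of 1 copy of many of them slows growth and gives the thin bristles called the Minute phenotype. In flies and mammals these genes commonly start in a pyrimidine-rich TCT initiator, which in flies is served by the TBP-related factor Trf2, and many carry small nucleolar RNAs (snoRNAs) in their introns.

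Chromatin immunoprecipitation (ChIP) had been carried out in Kc167, a plasmatocyte-like cell line from embryos, with antibody 8WG16, which binds the tail repeats of the largest Pol II subunit. The authors used it for the hypophosphorylated form of this tail, to examine total Pol II, and used other antibodies for the phosphorylated, elongating forms. Whether those forms were on a gene body without a peak cannot be read from the lists used here. Cells had received 100 pmol of a small interfering RNA against AGO2, the Argonaute of the siRNA pathway (siAGO2), or 2 µg of long double-stranded RNA against LaminB, the B-type lamin of the nuclear envelope (dsLaminB), or had been transfected with no RNA (mock), and were taken 3 days later. Each treatment had 2 immunoprecipitated libraries. The mock cells contained no control RNA, the knockdowns used different kinds of RNA, a single cell line was used, and the labels do not say whether replicates were separate cultures.

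The lists held 4089 and 5381 peaks in siAGO2 replicates 1 and 2, 2531 and 4124 in dsLaminB replicates 1 and 2, and 5965 and 5601 in mock replicates 1 and 2. Each had been called on its own library against its input. The read depth is unknown here, so a shorter list can hold fewer occupied sites, fewer reads or a poorer precipitation, and these cannot be told apart. In such bulk libraries, Pol II on fewer cells and less Pol II per cell cannot be told apart either. With 2 libraries against 2, an exact permutation test cannot go below p = 0.333, so no difference between treatments could pass a threshold of 0.05 by this test, and differences are given as values with the spread of the replicates. Both knockdowns are compared with the same mock libraries and are not independent of each other in this. The blood-cell genes used to check the cell line (srp, ush, Pvr, Col4a1, vkg, Ppn and Hml) had a peak in 6 of 6 libraries for 7 of 7 genes. The male germ-line genes aly, can and bam had none, elav was the 1 of 3 neuronal genes with a peak, and of 3 muscle genes 1 had a peak in 5 libraries and 2 in dsLaminB replicate 2. The targeted genes gave no check of knockdown, since both RNAs act on transcripts. A Pol II peak lay on AGO2 in 6 libraries and on Lam in 5, all but dsLaminB replicate 1.

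The start regions of 10 members are printed to show the TCT core and the gene copies that differ in their peaks. Each runs from 40 bases before to 20 bases from the annotated start, 5′ to 3′ on the coding strand, and was read from the RefSeq copy of the same assembly. Capitals mark CTTTT or CTTTC where its C lies at most 5 bases from the start, and a sequence without capitals has no such match. The first pairs are a copy with a peak in 6 libraries followed by a copy with none, and the last sequences are from RpLP1 and RpL30, which ranked high in the lists.
RpS5a (chrX:17148245-17148304, minus strand): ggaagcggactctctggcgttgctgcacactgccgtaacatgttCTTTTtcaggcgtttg
RpS5b (chr3R:14901544-14901603, minus strand): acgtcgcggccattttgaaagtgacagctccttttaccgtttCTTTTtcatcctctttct
RpS10b (chrX:19598000-19598059, plus strand): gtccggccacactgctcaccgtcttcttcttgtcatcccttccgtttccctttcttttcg
RpS10a (chr3R:27652720-27652779, plus strand): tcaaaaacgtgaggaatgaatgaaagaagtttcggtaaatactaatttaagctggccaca
RpS19a (chrX:16637854-16637913, plus strand): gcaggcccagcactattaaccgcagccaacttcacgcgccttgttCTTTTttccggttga
RpS19b (chr3R:23933511-23933570, minus strand): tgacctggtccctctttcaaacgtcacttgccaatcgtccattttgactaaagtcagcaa
RpL10Ab (chr3L:11822811-11822870, plus strand): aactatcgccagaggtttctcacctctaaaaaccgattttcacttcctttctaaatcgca
RpL10Aa (chr3R:15037326-15037385, plus strand): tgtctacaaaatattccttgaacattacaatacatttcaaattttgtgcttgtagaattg
RpLP1 (chr2L:419912-419971, plus strand): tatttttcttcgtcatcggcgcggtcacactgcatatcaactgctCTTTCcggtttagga
RpL30 (chr2L:19009218-19009277, minus strand): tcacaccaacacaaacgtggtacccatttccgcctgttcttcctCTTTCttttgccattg

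The TCT core was common at member starts. CTTTT or CTTTC began within 5 bases of the start of 41 of 92 members (44.6%), against 491 of 13967 protein-coding genes (3.52%) and 3 of 73 mitochondrial ribosomal protein genes (4.11%). In 33 of the 41 the C lay 2 to 5 bases after the annotated start. Other letters were sought on both strands of a window of 300 bases, 250 before and 50 from the start, in which the motifs could overlap. TATCGATA, the element bound by Dref, was present in 28 members (30.4%), 15 mitochondrial ribosomal protein genes (20.5%) and 8.94% of all protein-coding genes. GGTCACACT, the element bound by M1BP, was present in 9 members (9.78%), 8 mitochondrial ribosomal protein genes (11.0%) and 5.86% of all. Its share was thus no higher in members than in the mitochondrial ribosomal protein genes. CACGTG, the E-box bound by Myc, was present in 11 members (12.0%), 5 mitochondrial ribosomal protein genes (6.85%) and 4.25% of all. TATAAA was as frequent in members (42, or 45.7%) as in all genes (45.3%). Of the 7 members with no peak in any library, 2 had the TCT core and 3 had TATAAA, and none had one of the other letters. A match says only that these letters stand in the window.

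Pol II peaks lay on most members in each of the 6 libraries. A peak, meaning an overlap of at least 1 bp with the gene body, was found on 82 and 83 members in siAGO2 replicates 1 and 2 (89.1% and 90.2%), on 59 and 80 in dsLaminB replicates 1 and 2 (64.1% and 87.0%) and on 85 in each mock replicate (92.4%). The background over all protein-coding genes was 33.2% and 42.9% in siAGO2, 19.0% and 31.5% in dsLaminB, and 48.6% and 45.9% in mock. The siAGO2 libraries averaged 82.5 ± 0.707 members with a peak (SD, n = 2), the dsLaminB libraries 69.5 ± 14.8 and the mock libraries 85 ± 0. The difference from mock was -2.5 members for siAGO2 with a pooled SD of 0.5, and -15.5 members for dsLaminB with a pooled SD of 10.5. The libraries of each knockdown lay below both mock libraries, by a few members in siAGO2 and by a number that differed widely between the replicates in dsLaminB. A peak was present in 6 libraries on 59 members (64.1%), against 18.2% of all protein-coding genes, and in none on 7 members (7.61%), against 49.6%.

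Relative to the mock mean, members kept a larger share of their peaks than other genes in each knockdown library. The members with a peak came to 96.5% and 97.6% of the mock mean in siAGO2 replicates 1 and 2, and to 69.4% and 94.1% in dsLaminB replicates 1 and 2. These shares were, for the other protein-coding genes, 69.8% and 90.7% in siAGO2, with 39.7% and 66.3% in dsLaminB. The mitochondrial ribosomal protein genes lay at the other end, with 35.2% and 83.2% of the mock mean in siAGO2 and 3.20% and 28.8% in dsLaminB. Taking genes that carried peaks in each mock replicate, 82 of 85 members (96.5%) had one in both siAGO2 libraries, against 71.6% of all such genes, and 59 of 85 (69.4%) had one in both dsLaminB libraries, against 40.6%. Of 57 mitochondrial ribosomal protein genes chosen in this way, 21 had one in both siAGO2 libraries and 2, mRpL22 and mRpL34, in both dsLaminB libraries.

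**Figure D1:**
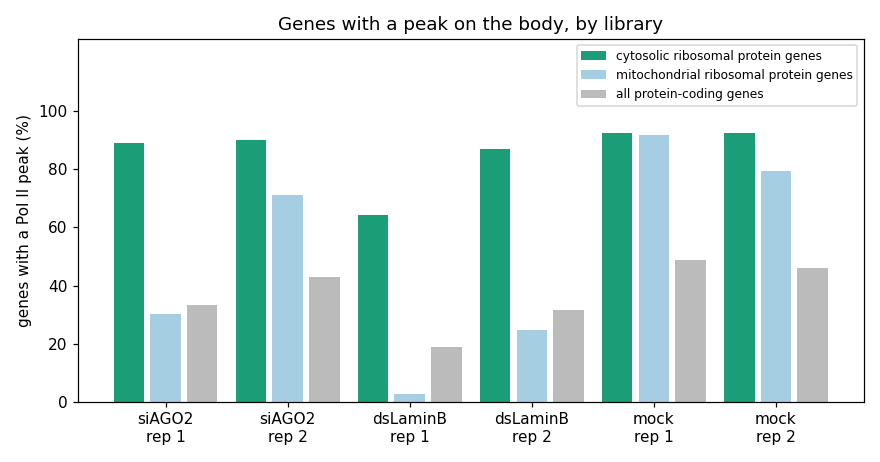
Share of genes with a Pol II peak on the gene body (percent, vertical axis) in each of the 6 libraries, grouped by treatment, for the cytosolic members, the mitochondrial ribosomal protein genes and all protein-coding genes. The cytosolic members stand at 87.0% or more in 5 libraries and at 64.1% in dsLaminB replicate 1, and the mitochondrial genes reach 91.8% in mock replicate 1 and 2.74% in dsLaminB replicate 1.

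The difference in presence went with the length of the list. When each list was limited to its 2531 strongest peaks, the length of the shortest one, 72 and 57 members had a peak in siAGO2 replicates 1 and 2, 59 and 61 in dsLaminB and 61 and 56 in mock. The ranges then overlapped, and both knockdown means were above the mock mean, by 6 members in siAGO2 and 1.5 in dsLaminB. In lists of this length 20.8% and 22.0% of protein-coding genes had a peak in siAGO2, 19.0% and 20.3% in dsLaminB, and 22.8% and 22.3% in mock.

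The 7 members with no peak in any library were copies or relatives of another ribosomal protein gene. RpS5b, RpS10a and RpS19b are small-subunit copies known for use in the germ line, and their partners RpS5a, RpS10b and RpS19a had a peak in 6 of 6 libraries. The peaks on RpS19a covered 24.9% and 54.1% of its body in siAGO2 replicates 1 and 2, 22.7% and 25.7% in dsLaminB, and 46.9% and 56.8% in mock. RpS5a, at 4677 bp the longest member and host of 14 snoRNAs, was covered only near its start, over 6.91% and 6.78% in siAGO2, 3.74% and 6.74% in dsLaminB, and 9.64% and 9.36% in mock. RpS10b was covered over 14.6% and 45.3% in siAGO2, 12.2% and 13.1% in dsLaminB, and 64.8% and 46.7% in mock.

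The large-subunit copies without a peak were RpL10Aa, RpL22-like and RpL37-2, and RpS28-like was the remaining small-subunit relative. RpL10Ab, RpL22 and RpL37-1, their partners, had a peak in 6 libraries, and RpL37-1 was covered over 21.6% and 44.0% in siAGO2, 36.8% and 26.2% in dsLaminB, and 46.0% in each mock replicate. Not every copy was bare. RpL7-like, a relative of RpL7, had a peak in 5 libraries and was covered over 3.95% and 14.3% in siAGO2, 0% and 10.0% in dsLaminB, and 13.8% and 15.8% in mock, but its best peak also spanned the start of JhI-21 and CG34164 in each of the 5. RpL7 itself was covered over 24.7% and 62.1% in siAGO2, 22.5% and 55.8% in dsLaminB, and 47.9% and 82.8% in mock. Thus both genes of this pair had a peak, whereas a peak that spans another start does not say which gene Pol II was on.

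RpL24-like and RpLP0-like are homologs of the yeast assembly factors Rlp24 and Mrt4, which hold the place of a ribosomal protein during subunit maturation. RpL24-like was covered over 27.9% and 46.7% in siAGO2, 0% and 23.3% in dsLaminB, and 82.2% and 72.2% in mock. Its best peak covered the start of CG5276 in each of the 5 libraries with a peak. RpLP0-like was covered over 20.3% and 26.0% in siAGO2, 13.3% and 21.6% in dsLaminB, and 87.7% and 25.8% in mock, under a peak that also covered the start of 14-3-3zeta in all 6 lists. The ribosomal protein RpL24 was covered over 22.8% and 48.6% in siAGO2, 27.3% and 23.7% in dsLaminB, and 44.2% and 53.0% in mock, with no other start under its best peak. RpL24 and RpL24-like were therefore both lower in the dsLaminB than in the mock libraries. In RpLP0-like mock replicate 2 lay within the range of the siAGO2 replicates.

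Members with a peak in both mock libraries and in neither library of a knockdown were few. For siAGO2 there were 2 of 92 (2.17%, background 3.32% of all protein-coding genes), RpL38 and RpL34a, or 2.35% of the 85 that had peaks in each mock replicate against 7.34% of all such genes. For dsLaminB there were 5 of 92 (5.43%, background 14.0%), the same pair with RpS14a, RpS14b and RpS15Ab, or 5.88% of the 85 against 30.8%. Both shares were below those of all genes. No member had the opposite pattern, which 0.0286% of all protein-coding genes had in each knockdown. This turned with the length of the lists: at 2531 peaks each, 0 members in siAGO2 and 2 in dsLaminB had peaks in mock only, and 3 in siAGO2 and 5 in dsLaminB in the knockdown only. The shares of all protein-coding genes with these patterns were not computed at this length. These counts therefore do not say whether members differ from other genes.

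RpL38 (FBgn0040007, 2R, 4515388 to 4516458, minus strand) encodes a small protein of the large subunit and lies in pericentric heterochromatin. It was covered over 0% in siAGO2 and dsLaminB replicates, against 100% and 69.5% in mock replicates 1 and 2, where its peaks ranked 5350 and 5286. RpL34a (FBgn0039406, 3R, 26058420 to 26059267, minus strand), a copy of the RpL34 gene, was covered over 0% in the 4 knockdown libraries, against 99.8% and 50.6% in mock, at ranks 5086 and 4279. The mock peaks of RpL34a reached to 26059265 and 26059236 in replicates 1 and 2, just short of its annotated start at 26059267. That of mock replicate 1 also spanned the starts of PIG-P and Tcs6. The mock peaks of RpL38 and RpL34a thus stood near the weak end of lists of 5965 and 5601 peaks. The difference in cover was -84.7 percentage points for RpL38 with a pooled SD of 15.3, and -75.2 for RpL34a with a pooled SD of 24.6, in each knockdown (exact permutation p = 0.333 for each, two-sided, the smallest possible). RpL34b, the copy of RpL34a, had a peak in 6 libraries and was covered over 19.9% and 100% in siAGO2, 25.1% and 30.7% in dsLaminB, and 39.0% and 100% in mock.

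RpS14a and RpS14b are neighbouring, nearly identical copies on X, and reads that match both are removed by a filter on mapping quality, so their values are uncertain. RpS14a was covered over 5.98% and 19.9% in siAGO2, 0% in each dsLaminB replicate, and 33.3% and 35.5% in mock. RpS14b was covered over 10.4% and 22.1% in siAGO2, 0% in each dsLaminB replicate, and 100% in each mock replicate. The best peak of RpS14a also covered the start of Dhdds, and that of RpS14b the start of Ubr3, in each library that had one. RpS15Ab was covered over 0% and 25.1% in siAGO2, 0% in each dsLaminB replicate, and 41.4% and 23.9% in mock, by peaks of 1992 to 2099 bp that spanned the starts of Lsm10, Prosbeta5 and dgo. Its partner RpS15Aa had a peak in 6 libraries and was covered over 19.6% and 26.9% in siAGO2, 9.62% and 11.9% in dsLaminB, and 30.0% and 22.3% in mock.

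A single library held most of the missing peaks. In dsLaminB replicate 1, 26 of the 85 members with peaks in both mock libraries had none, and 21 of these had a peak in dsLaminB replicate 2. The 26 had been weaker elsewhere. Their median place in the list, as a percentile of its length counted from the strongest peak, was 56.1 and 54.7 in siAGO2 replicates 1 and 2, 69.2 in dsLaminB replicate 2, and 46.5 and 51.7 in mock. For the 59 members present in dsLaminB replicate 1 it was 34.8 and 33.4 in siAGO2, 37.9 in dsLaminB replicate 2, and 30.7 and 30.5 in mock. Without dsLaminB replicate 2, 26 members would count as absent from dsLaminB in place of 5.

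The part of the body under a peak differed more between the libraries than presence did. Peaks covered on average 27.2% and 57.5% of a member's body in siAGO2 replicates 1 and 2, 13.7% and 32.4% in dsLaminB, and 64.9% and 62.9% in mock, with 0 counted where there was no peak. The siAGO2 mean was 42.3 ± 21.4%, the dsLaminB mean 23.1 ± 13.2% and the mock mean 63.9 ± 1.43% (SD, n = 2 each). The difference from mock was -21.5 percentage points for siAGO2 with a pooled SD of 15.2, and -40.8 for dsLaminB with a pooled SD of 9.38. The mock replicates lay close together, each knockdown library was below both of them, and replicate 2 of siAGO2 was nearer to mock than to its own partner. Without siAGO2 replicate 1 the difference was -6.39 points, and without siAGO2 replicate 2 it was -36.7. In lists limited to 2531 peaks the mean cover was 23.8% and 37.0% in siAGO2, 13.7% and 23.5% in dsLaminB, and 44.2% and 38.6% in mock, so each knockdown library again lay below both mock libraries at equal length, siAGO2 replicate 2 by the least. The mean cover of other genes was not computed at this length, so it is not known whether members differ from them there.

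In bases, members differed from mock in about the same proportion as other genes. The mean member had 345 and 789 bp under peaks in siAGO2 replicates 1 and 2, 182 and 423 bp in dsLaminB, and 868 and 838 bp in mock. These were 40.5% and 92.6% of the mock mean in siAGO2 and 21.3% and 49.6% in dsLaminB. The other protein-coding genes had 46.5% and 88.7% in siAGO2 and 23.1% and 45.6% in dsLaminB, and the mitochondrial ribosomal protein genes 22.2% and 77.4% in siAGO2 and 1.71% and 20.3% in dsLaminB. Outside dsLaminB replicate 1, members thus had nearly the mock number of peaks, and the bases missing were mostly those of narrower peaks. As a share of the body, member cover came to 42.6% and 90.0% of the mock mean in siAGO2 and 21.5% and 50.7% in dsLaminB. For the other protein-coding genes it was 38.3% and 87.1% in siAGO2 and 15.4% and 37.4% in dsLaminB, lower in each knockdown library. In mock replicates 1 and 2 this cover averaged 8.63% and 7.76% in those genes and 38.5% and 33.1% in the mitochondrial ribosomal protein genes. The differences were not tested.

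**Figure D2:**
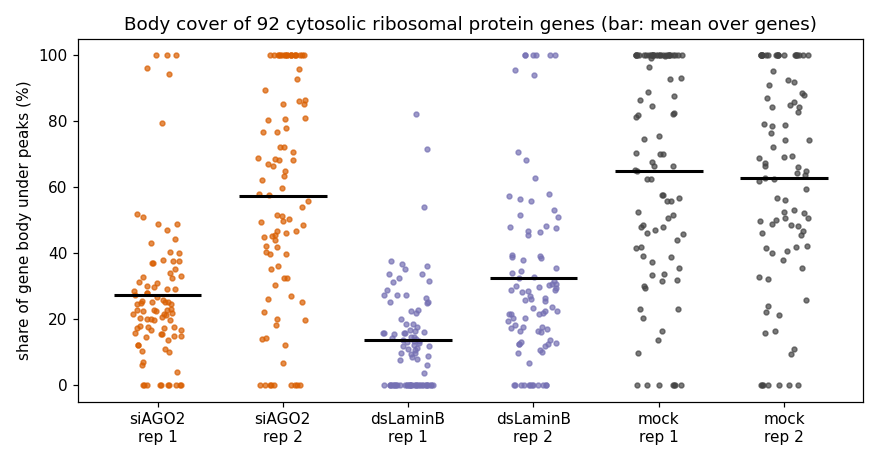
Share of each member's body under peaks (percent, vertical axis) in the 6 libraries, each point a gene and each bar the mean over the 92 members. The means are 27.2% and 57.5% in siAGO2 replicates 1 and 2, 13.7% and 32.4% in dsLaminB, and 64.9% and 62.9% in mock, and the points of each library spread widely.

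Lower cover in both libraries of a knockdown than in both mock libraries was found for 31 members in siAGO2 (33.7%, background 23.6%) and for 70 in dsLaminB (76.1%, background 41.5%). A gene without a peak in each mock replicate cannot be lower. Over the genes that carried peaks in each mock replicate the shares were 36.5% of members against 52.2% of all such genes in siAGO2, and 82.4% of members against 91.8% in dsLaminB, so that the member share was the smaller for each knockdown, by a difference that was not tested. No member was higher in both libraries of a knockdown than in both mock libraries, a pattern seen in 0.179% of all protein-coding genes for siAGO2 and in 0.0788% for dsLaminB. Without siAGO2 replicate 2 the count of lower members in siAGO2 was 81.

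The members with the largest falls in cover were mostly covered from end to end in mock. A large fall needs a high cover in mock, so the choice of these genes favours such members. RpL14, a large-subunit gene, was covered over 17.9% and 44.8% in siAGO2 replicates 1 and 2, 14.1% and 18.2% in dsLaminB, and 100% in each mock replicate. Its mock peaks of 3451 and 2379 bp also covered the start of Nelf-E, a subunit of the pausing factor NELF, as did that of siAGO2 replicate 2 with 1057 bp, whereas the peaks of siAGO2 replicate 1, with 290 bp, and of dsLaminB, with 195 and 262 bp, did not. The difference in cover was -68.7 points in siAGO2 with a pooled SD of 13.4 and -83.9 in dsLaminB with a pooled SD of 2.05 (exact permutation p = 0.333 each). RpL27A was covered over 29.9% and 59.9% in siAGO2, 16.4% and 46.3% in dsLaminB, and 100% in each mock replicate. In both genes the knockdown values lay apart from the mock values, and in RpL14 the dsLaminB peaks were confined to a short stretch.

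RpS18, of the small-subunit head, was covered over 44.4% and 100% in siAGO2, 8.51% and 17.5% in dsLaminB, and 100% in each mock replicate. The difference was -87.0 points in dsLaminB with a pooled SD of 4.48, while siAGO2 replicate 2 equalled the mock libraries. RpL40 encodes a ribosomal protein fused to ubiquitin, and was covered over 25.1% and 76.8% in siAGO2, 0% and 28.7% in dsLaminB, and 99.3% and 100% in mock. RpS27A, the other ubiquitin fusion, differed from it in siAGO2 replicate 2. It was covered over 25.4% and 100% in siAGO2, 0% and 38.8% in dsLaminB, and 56.6% and 48.4% in mock, by peaks that also covered the start of Ip259.

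The members whose mean cover was higher in siAGO2 than in mock owed it to replicate 2. RpL7A was covered over 12.2% and 49.7% in siAGO2, 6.04% and 10.7% in dsLaminB, and 16.5% and 16.4% in mock. The siAGO2 difference of 14.5 points was within the pooled SD of 18.8, and replicate 1 lay below both mock libraries. RpL11, whose protein binds the 5S RNA with RpL5, was covered over 20.6% and 63.3% in siAGO2, 7.48% and 53.2% in dsLaminB, and 39.3% and 41.6% in mock. In RpL11 the ranges of both knockdowns spanned the mock values. For dsLaminB no member had a higher mean than mock.

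End-to-end cover was common among members in mock. A body covered to 100% was found for 3 and 19 members in siAGO2 replicates 1 and 2, 0 and 6 in dsLaminB, and 27 and 21 in mock, among 16 and 107, 1 and 13, and 149 and 123 protein-coding genes in the same order of libraries. In mock these were 29.3% and 22.8% of members, 8.22% and 6.85% of mitochondrial ribosomal protein genes and 1.07% and 0.881% of all protein-coding genes. Members are short, and a peak of given width covers more of a short body. Mean mock cover was 70.3% and 67.0% in members shorter than the median and 59.5% and 58.7% in the longer ones. At least 50% was covered for 8 and 52 members in siAGO2, 3 and 18 in dsLaminB, and 60 and 61 in mock, among 49 and 447, 21 and 87, and 493 and 449 protein-coding genes in the same libraries. Of the 17 members fully covered in both mock libraries, 3 were so in siAGO2 replicate 1, 12 in siAGO2 replicate 2, none in dsLaminB replicate 1 and 6 in dsLaminB replicate 2. RpL41, which encodes one of the smallest proteins of the ribosome, was fully covered in 5 libraries and over 54.0% in dsLaminB replicate 1. RpS28a, the shortest member with 304 bp, was covered over 100% in each siAGO2 replicate, 0% and 100% in dsLaminB, and 100% in each mock replicate, always by a peak that spanned the starts of Axn and Mgat2. Its full cover thus came with a peak shared by 3 genes.

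The peaks of members were wide in mock. The median width of the best-ranked peak was 452 and 1131 bp in siAGO2 replicates 1 and 2, 287 and 538.5 bp in dsLaminB, and 1467 and 1311 bp in mock. Over the other protein-coding genes it was 429 and 604 bp in siAGO2, 317 and 398 bp in dsLaminB, and 707 and 629 bp in mock. The difference from mock for members was -597.5 bp in siAGO2 with a pooled SD of 348, and -976 bp in dsLaminB with a pooled SD of 148. Members and other genes stood much further apart in mock and in siAGO2 replicate 2 than in siAGO2 replicate 1, and in dsLaminB replicate 1 the member median was the lower. Among members with a peak in the 4 libraries compared, it was narrower in both knockdown libraries for 44 of 82 in siAGO2 (53.7%, background 53.3%) and for 52 of 59 in dsLaminB (88.1%, background 91.1%). These shares were those of the background, and no member had a wider peak in both (background 0.464% in siAGO2 and 0.195% in dsLaminB). At 2531 peaks per list the median widths were 441.5 and 1098 bp in siAGO2, 287 and 590 bp in dsLaminB, and 1465 and 1357.5 bp in mock.

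The 5 genes with the widest mock peaks, RpL14 among them, were narrower in both dsLaminB libraries than in both mock libraries. RpLP0, of the ribosomal stalk, had a best peak of 769 and 4499 bp in siAGO2, 611 and 992 bp in dsLaminB, and 4029 and 4246 bp in mock. RpL28, host of 5 snoRNAs, had 1083 and 1131 bp in siAGO2, 354 and 1013 bp in dsLaminB, and 3870 and 3792 bp in mock, where the peak reached over the starts of Larp4B and eIF1. In RpL28 both siAGO2 replicates were narrow, while in RpLP0 the second was as wide as in mock. RpL3, beside the peptidyl transferase centre, had 1121 and 3538 bp in siAGO2, 1012 and 2475 bp in dsLaminB, and 3422 and 3648 bp in mock. RpL36A had 349 and 2698 bp in siAGO2, 282 and 1358 bp in dsLaminB, and 2681 and 2596 bp in mock. The second siAGO2 replicate was as wide as mock in RpLP0, RpL3 and RpL36A.

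The differences were larger in the body than at the start, apart from dsLaminB replicate 1, which differed at both. A peak covered an annotated start of the gene for 80 and 81 members in siAGO2 replicates 1 and 2, 46 and 75 in dsLaminB, and 83 and 84 in mock, against 27.5% and 36.0%, 15.0% and 25.1%, and 43.8% and 40.2% of all protein-coding genes in the same libraries. Distances were taken from 1 start per gene, that of the transcript marked as canonical in the annotation. A peak covered this start in 78 and 79 members in siAGO2, 39 and 71 in dsLaminB, and 82 and 83 in mock. Along the direction of transcription, the peak over it ended at a median of 324 and 810 bp downstream in siAGO2, 223 and 351 bp in dsLaminB, and 985 and 903 bp in mock. For the other protein-coding genes it ended at 241 and 320 bp in siAGO2, 208 and 237 bp in dsLaminB, and 355 and 331 bp in mock. It began 106 and 137 bp upstream in siAGO2, 78 and 93 bp in dsLaminB, and 240 and 147 bp in mock. In members the downstream end moved much further between libraries than the upstream one. At 500 bp downstream of the start, 16.3% and 70.7% of members were under a peak in siAGO2, 7.61% and 29.3% in dsLaminB, and 79.3% in each mock replicate. At 1000 bp it was 4.35% and 31.5% in siAGO2, 0% and 12.0% in dsLaminB, and 48.9% and 43.5% in mock, a distance that lies beyond the end of the shorter members. Of the other protein-coding genes, 2.23% and 9.44% were under a peak at 500 bp in siAGO2, 1.07% and 2.64% in dsLaminB, and 10.8% and 9.09% in mock. At 1000 bp these were 1.02% and 3.29% in siAGO2, 0.454% and 0.987% in dsLaminB, and 3.69% and 3.14% in mock, so that other genes were also lower in siAGO2 replicate 1 and in dsLaminB than in mock.

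**Figure D3:**
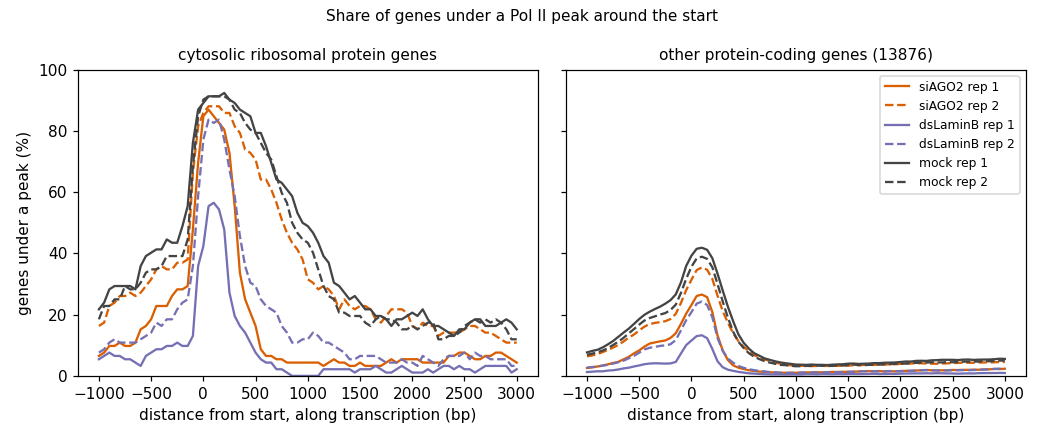
Share of genes under a Pol II peak (percent, vertical axis) at distances from the annotated start of the canonical transcript (bp, horizontal axis, negative upstream), a line for each library, for members and for the other protein-coding genes. At 500 bp downstream the member lines stand at 79.3% in each mock replicate, 70.7% in siAGO2 replicate 2, 29.3% in dsLaminB replicate 2, 16.3% in siAGO2 replicate 1 and 7.61% in dsLaminB replicate 1.

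The place of members in each list was ahead of that of other genes in 5 libraries. By the deposited −log10 q, the median percentile of the member peaks was 36.4 and 38.5 in siAGO2 replicates 1 and 2, 63.5 and 44.5 in dsLaminB, and 32.4 and 37.6 in mock, where a low value is a strong peak. For the other protein-coding genes it was 49.6 and 46.3 in siAGO2, 48.4 and 47.7 in dsLaminB, and 45.7 and 46.9 in mock, and for the mitochondrial ribosomal protein genes 61.4 and 68.4, 48.3 and 64.2, and 62.4 and 65.9 in the same libraries. In dsLaminB replicate 1 the members stood behind the other genes. The lists differ in length and a short one holds only the stronger peaks, so percentiles are read within a list. Among the genes with a peak in 6 libraries, the 59 members had medians of 34.8 and 33.4 in siAGO2, 63.5 and 37.9 in dsLaminB, and 30.7 and 30.5 in mock, and all 2544 such genes 29.0 and 22.1, 47.4 and 29.0, and 19.7 and 21.2. Within that set of constantly bound genes, the member median was therefore the weaker in each of the 6 lists.

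Among members with a peak in the 4 libraries compared, the percentile was weaker in both siAGO2 libraries than in both mock libraries for 23 of 82 (28.0%, background 41.6%) and stronger for 10 (12.2%, background 4.92%). For dsLaminB it was weaker for 37 of 59 (62.7%, background 69.2%) and stronger for 1 (1.69%, background 5.10%). These counts set percentiles of lists of unequal length side by side and are read only against the background. In lists of 2531 peaks the difference of the member median from mock turned from weaker to stronger, at -6.02 in siAGO2 and -5.39 in dsLaminB, against 2.42 and 19.0 in the full lists. The 10 with a stronger place in siAGO2 were RpL14, RpL22, RpL27A, RpL28, RpL36A, RpL41, RpL7-like, RpLP1, RpS23 and RpS27. RpL14, RpL27A and RpL28 also had a lower cover in both siAGO2 libraries than in both mock libraries, so that in these genes a lower percentile stood beside a shorter peak. RpLP1, an acidic protein of the ribosomal stalk, was the 1 member in dsLaminB. Within each list its percentile was 8.29 and 25.6 in siAGO2, 18.4 and 13.7 in dsLaminB, and 27.1 and 38.9 in mock. Its cover was 47.1% and 100% in siAGO2, 25.3% and 47.9% in dsLaminB, and 100% in each mock replicate.

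The strongest member over the 6 lists was RpS28b, of the small subunit. Its peak stood at percentile 11.2 and 5.46 in siAGO2, 23.4 and 10.1 in dsLaminB, and 16.5 and 2.84 in mock, where it ranked 987 and 159. It was covered over 31.3% and 36.0% in siAGO2, 18.7% and 27.0% in dsLaminB, and 100% and 42.1% in mock, so the gene with the highest place was not among the fully covered ones in both mock libraries. RpS4 stood at 21.1 and 12.8 in siAGO2, 28.4 and 14.0 in dsLaminB, and 17.6 and 14.5 in mock. RpL22 stood at 15.9 and 15.1 in siAGO2, 22.5 and 17.9 in dsLaminB, and 31.4 and 21.3 in mock. RpL30, whose start is printed above, stood at 20.2 and 11.6 in siAGO2, 27.5 and 22.8 in dsLaminB, and 19.8 and 27.4 in mock. These genes had no other start under their best peak, apart from RpS28b in mock replicate 1, and each was ahead of the member median in all 6 lists.

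The weakest members with a peak in 6 lists were RpL10Ab, RpL15, RpS21, RpLP0-like and RpL34b. RpL10Ab stood at percentile 62.0 and 76.5 in siAGO2, 93.9 and 87.0 in dsLaminB, and 62.6 and 71.1 in mock, yet its body was covered over 37.8% and 100% in siAGO2, 15.9% and 100% in dsLaminB, and 100% in each mock replicate. RpL15 lies in the heterochromatin of 3L. It stood at 73.1 and 58.4 in siAGO2, 92.9 and 83.1 in dsLaminB, and 62.1 and 55.8 in mock, and was covered over 94.3% and 51.1% in siAGO2, 36.2% and 95.5% in dsLaminB, and 96.5% and 95.2% in mock. In both genes a weak place in the list stood beside a body that mock peaks covered almost to its ends. RpS21 stood at 68.3 and 52.3 in siAGO2, 77.1 and 91.9 in dsLaminB, and 40.9 and 46.6 in mock, behind the member median in each list.

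**Figure D4:**
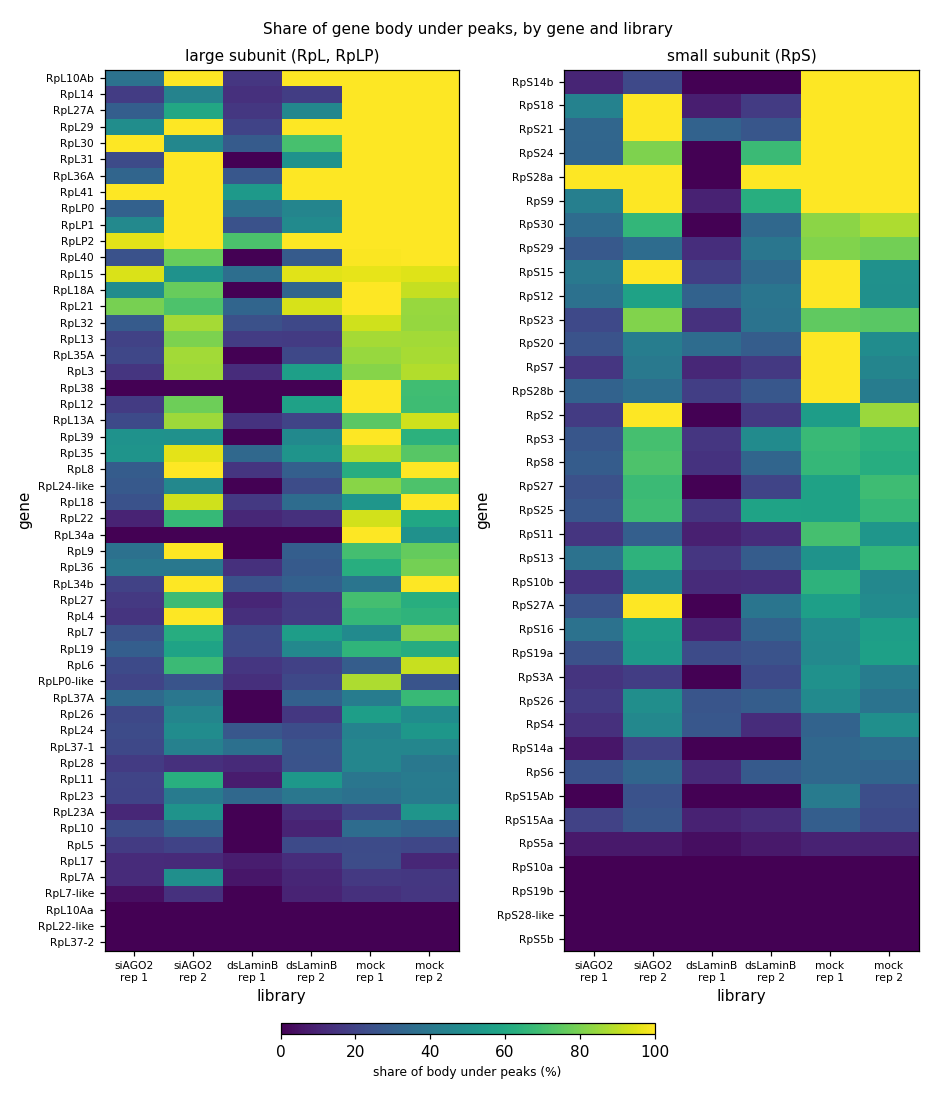
Share of the body under peaks (percent, colour) for the members (down the page) in the 6 libraries (across, grouped by treatment). The 27 and 21 fully covered members of the mock replicates contrast with 3 and 19 in siAGO2 and 0 and 6 in dsLaminB, and 7 members stand at 0% throughout.

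The subunits had like values. Of the 54 large-subunit members 49 had a peak in each siAGO2 replicate, 35 and 49 in dsLaminB, and 51 in each mock replicate. Of the 38 small-subunit members 33 and 34 had one in siAGO2, 24 and 31 in dsLaminB, and 34 in each mock replicate. Mean cover was 29.6% and 60.8% in siAGO2, 14.7% and 36.8% in dsLaminB, and 68.1% and 68.5% in mock for the large subunit, and 23.8% and 52.8%, 12.3% and 26.1%, and 60.3% and 54.8% in the same libraries for the small one. The large-subunit mean was the higher in each of the 6 libraries, and in each subunit the knockdown libraries lay below both mock libraries.

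An annotated snoRNA lay on the same strand inside 28 members, 74 snoRNAs in all, with 14 in RpS5a, 7 in RpS7 and 5 each in RpL28 and RpS16. These host genes were longer than the other members, with a median of 1887.5 against 1125.5 bp. All 28 hosts had a peak in 5 libraries and 25 had one in dsLaminB replicate 1, against 54 and 55 of the 64 other members in siAGO2, 34 and 52 in dsLaminB, and 57 in each mock replicate. Mean cover was 27.1% and 53.1% in siAGO2, 14.3% and 36.0% in dsLaminB, and 66.9% and 61.1% in mock for the hosts, and 27.2% and 59.4%, 13.5% and 30.8%, and 64.0% and 63.6% in the same libraries for the others. The 7 members with no peak in any library were all among the others, and in mock they were the only members without a peak. The share with a peak was the higher in hosts in each library, in mock only through these 7 members. The covered share of the body, in which they are included, was nearly the same in hosts and others.

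Members in heterochromatin or on chromosome 4, where silent chromatin surrounds active genes, also carried peaks. RpL5, which binds the 5S RNA and lies in the proximal part of 2L, was covered over 17.5% and 20.1% in siAGO2, 0% and 22.4% in dsLaminB, and 22.9% and 21.1% in mock. RpS3A, the member on chromosome 4, was covered over 15.0% and 18.2% in siAGO2, 0% and 22.5% in dsLaminB, and 50.7% and 41.9% in mock. RpL5 therefore varied little outside dsLaminB replicate 1, and RpS3A was lower in each knockdown library than in both mock libraries. RpL12 and RpL39 overlap by their 3′ ends on 2R and shared a single peak of 2222 bp in mock replicate 1, so they are not independent there.

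Peaks often reached a neighbour. The best peak of some members also covered the start of another protein-coding gene. Among members with a peak, this held for 25 of 82 and 43 of 83 in siAGO2 replicates 1 and 2. In dsLaminB it held for 9 of 59 and 20 of 80, and in mock for 51 of 85 and 46 of 85. For such members the peak cannot be given to a single gene. The count was highest in the mock libraries. It was not made over all protein-coding genes, so it does not say whether members differ from other genes in this. The bodies of 67 members overlapped no other protein-coding gene.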

How the data were processed

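The authors immunoprecipitated Pol II, trimmed single-end reads with cutadapt (1.10 in the submitters' processing notes), aligned them with Bowtie2 to dm6, filtered low mapping quality and duplicates (Picard 2.11.0) and called broad peaks with MACS2 (2.1.1.20160309) for each replicate against its input. The deposited lists give a score, a fold enrichment, which is a ratio to local background, and −log10 values of p and q. The authors' −log10 q ranked the peaks within a list, fold ranked them in an alternative, and score was not used further. The 6 input samples had no list and were not analysed here. Peaks were overlapped with gene bodies of Ensembl release 115 (at least 1 bp) in Python 3.11.15 with pandas 2.3.3 and numpy 2.4.6, and the overlap code was tested on simulated data. Differences are knockdown minus mock means with the SD of 2 libraries. Single genes had an exact permutation test, and no test was made over the members.

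The members and lists were chosen with earlier results of these data known. Genes named with all values were those present in mock but absent from a knockdown, those without a peak, the 5 strongest and 5 weakest by mean percentile, the 5 largest differences in each direction, the 5 widest mock peaks and listed duplicate pairs, and 1 of them is not reported here. Alternatives were ranking by fold, a −log10 q of at least 5, joined peaks, an overlap of 50% of the body, lists of equal length, members without overlap or -like names, pairing by number and leaving out each replicate. The read depth behind the peaks is unknown, so no counting interval is given.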

Additional observations from a re-analysis of the deposited data

Results flagged for a closer look

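The place of RpL41 in the list lay on opposite sides of mock in the knockdowns. Its percentile was 15.5 and 23.2 in siAGO2 replicates 1 and 2, 36.5 and 36.6 in dsLaminB, and 27.0 and 29.5 in mock. The mean differed from mock by -8.94 in siAGO2 and by 8.33 in dsLaminB. The siAGO2 percentiles were ahead of both mock percentiles and the dsLaminB percentiles behind them, but the lists differ in length. By its rank from the top of the list the peak stood at 632 and 1247 in siAGO2, 925 and 1510 in dsLaminB, and 1612 and 1651 in mock, ahead of mock in both knockdowns, so the opposite sides depend on the list lengths. The difference between the knockdowns was not tested, and both rest on the same mock libraries.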

How the results depend on the processing

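Of 174 alternative values for 16 results, 147 kept their direction and lay within the pooled replicate SD, which is wide, of the reported value (counts within 1.5 times), 21 moved beyond that and 6 reversed. For differences of means or medians, leaving out a replicate cannot shift the value beyond this SD, and the replicate block leaves it unchanged. Those alternatives could not count as moved, so the 147 does not measure how stable the results are. In lists of equal length (2531 peaks) members with a peak differed from mock by 6 in siAGO2 and 1.5 in dsLaminB, peaks over the start by 6 in siAGO2 and -6 in dsLaminB, and median percentiles by -6.02 in siAGO2 and -5.39 in dsLaminB. There the members present in mock only were 0 for siAGO2 and 2 for dsLaminB, those present in a knockdown only 3 and 5, members with lower cover in dsLaminB 43, and the dsLaminB difference in cover was -22.8 points. At a −log10 q of at least 5, members with a peak differed by -5.5 in siAGO2 and -37 in dsLaminB, peaks over the start by -5 in siAGO2 and -39 in dsLaminB and the siAGO2 percentile by 8.90, and 1 member in siAGO2 and 18 in dsLaminB were present in mock only. With 50% of the body required, members with a peak differed by -30.5 in siAGO2 and -50 in dsLaminB, and 8 and 36 were present in mock only. With peaks joined, dsLaminB width differed by -1132.75 bp. Under none of the alternatives were shares of all protein-coding genes computed for presence in mock only, presence in a knockdown only or lower cover. The member counts of these kinds therefore have no background. Mean cover and median width of other genes were not computed under the alternatives either.

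Leaving out each replicate gave ranges of -3 to -2 members with a peak in siAGO2 and -26 to -5 in dsLaminB. Cover differed by -36.7 to -6.39 points in siAGO2 and -50.1 to -31.5 in dsLaminB, width by -937 to -258 bp in siAGO2 and -1102 to -850.5 bp in dsLaminB, and percentile by -0.144 (without mock replicate 1, reversed) to 4.98 in siAGO2 and 9.51 to 28.5 in dsLaminB. Peaks over the start differed by -3.5 to -2.5 in siAGO2 and -37.5 to -8.5 in dsLaminB. Members present in mock only were 2 to 3 in siAGO2 and 5 to 26 in dsLaminB, and those with lower cover 32 to 81 in siAGO2 and 71 to 84 in dsLaminB. The cause of these shifts was not tested. Samples were not paired by replicate number in the main results. Correlations of same-numbered deviations over genes were 0.0442 for siAGO2 and mock, -0.0432 for dsLaminB and mock and 0.282 for siAGO2 and dsLaminB. Over the members they were 0.296, -0.0311 and 0.0372 for these pairs of treatments, not all above 0.1. With 2 libraries per treatment these values cannot decide whether samples of the same number belong together. With the replicate block, 45 members were lower in siAGO2 and 73 in dsLaminB, and cover differed by -21.5 and -40.8 points. The unknown depth and 2 libraries per treatment limit every comparison.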

Other observations

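Genes that work with the ribosome but were not members had peaks in most libraries. Of 13 genes for ribosome assembly, such as Fib, which encodes the snoRNA methyltransferase fibrillarin, 10 and 13 had a peak in siAGO2 replicates 1 and 2, 4 and 9 in dsLaminB, and 13 in each mock replicate. Their mean cover was 6.90% and 35.8% in siAGO2, 2.28% and 6.65% in dsLaminB, and 20.4% and 27.5% in mock. Of 7 genes for translation elongation factors 6 had a peak in each siAGO2 replicate, 5 and 6 in dsLaminB, and 6 in each mock replicate. The gene without a peak in any library was eEF1alpha2. Their mean cover was 16.2% and 48.1% in siAGO2, 9.46% and 14.4% in dsLaminB, and 51.0% and 43.0% in mock. The genes sta and Rack1, which encode ribosomal proteins under other names, had a peak in 6 libraries and a mean cover of 27.5% and 86.6% in siAGO2, 33.7% and 31.1% in dsLaminB, and 83.7% and 73.0% in mock. Over these 3 groups the mean cover of siAGO2 replicate 2 was within the mock range or above it, and that of siAGO2 replicate 1 and both dsLaminB replicates was lower than in both mock replicates. Trf2, M1BP and Dref, factors that act at core promoters of ribosomal protein genes, had a mean cover of 6.27% and 11.0% in siAGO2, 6.29% and 2.70% in dsLaminB, and 13.6% and 15.5% in mock, with siAGO2 replicate 2 below both mock replicates. In that library M1BP alone was below both, at 0% against 11.7% and 12.9% in mock. Its mock peaks were weak, at percentiles 77.3 and 80.9. Trf2 (11.9%, against 12.5% and 11.8% in mock) and Dref (21.2%, against 16.5% and 21.8%) lay within the mock range there.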
